A study of Mus musculus with 4 samples.

Results

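The matrix metalloproteinases (MMPs), the ADAM and ADAMTS proteases and the tissue inhibitors of metalloproteinases (TIMPs) were followed by RNA sequencing of the young mouse lens. The members were the protein-coding genes of the deposited table named *Mmp*, *Adam*, *Adamts* or *Timp* with a number. The rule uses names and no measured value, but these families were chosen with earlier results of these data known. This rule took 80 of the 56748 genes in the table, of which 21970 are protein-coding. The 80 were 34 ADAM, 19 ADAMTS, 23 MMP and 4 TIMP genes. Of these, 57 had at least 1 read in the 4 libraries and 25 reached the mean level that was tested.

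The lenses came from mice 10 to 12 days old on the FVB/N background. Mutant mice were *Fsp1-cre;Pdgfrb*+/D849V, in which cre driven by the *Fsp1* (*S100A4*) promoter switches on 1 knocked-in *Pdgfrb* allele coding for a hyperactive receptor. The study describes robust activity of a cre reporter in lens epithelium from an age later than that of these mice. Expression of the mutant receptor is an assumption in the study, and the switch was not tested in these libraries. Control mice were *Fsp1-cre;Pdgfrb*+/+ in the labels, so that cre was shared by both groups, whereas the study's methods also place mice without cre in the control pools, with or without the D849V allele. Each group had 2 libraries, and each library pooled whole lenses of several mice. Cre under this promoter and the receptor's own promoter are active in other tissues too, and the study gives a number per group but neither the number nor the sex of the mice in a library. The p-values below measure the spread between these pools, and an exact permutation test of 2 against 2 libraries cannot give a p below 0.333.

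The libraries held 18561682 to 18878768 reads recovered from the deposited FPKM, a read level divided by gene length and a size value for each library. This size value was 0.944 to 1.05 times the library's recovered reads. Crystallin genes took 58.6% to 62.9% of these reads and the 80 members 0.0512% to 0.0609%, between 9661 and 11312 reads in a library. Of the 14 markers of lens fibre and lens epithelial cells, *Lim2* was listed at 0 in all 4 libraries and the other 13 ranged from an FPKM of 3.54 to 74239. *Xist*, which marks female cells, had an FPKM of 7.62 and 5.56 in mutant replicate 1 and control replicate 2 and of 13.1 and 15.6 in mutant replicate 2 and control replicate 1. Each genotype thus had 1 library with low and 1 with high *Xist*, and differences within each of these pairs are given where they matter.

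MMPs, ADAMs and ADAMTS proteins are zinc-dependent proteases of the cell surface and the extracellular matrix. MMPs cut collagens, laminins and other matrix proteins, ADAMs release the outer parts of membrane proteins such as growth factors, Notch and cadherins, and ADAMTS proteins process proteoglycans, procollagens and fibrillin microfibrils. TIMPs block these enzymes by binding the active site. The lens is wrapped in a basement membrane, the capsule, and hangs from fibrillin-rich zonular fibres, and MMP activity has long been studied in fibrotic cataract.

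TIMPs and a few ADAM and ADAMTS genes made up nearly all of the metalloproteinase system that the lens transcribed. Over the 4 libraries, ADAM genes supplied 42.6% of the members' summed FPKM, TIMP genes 33.1%, ADAMTS genes 20.7% and the 23 MMP genes 3.64%. The 4 highest members, *Timp2*, *Adam10*, *Adam9* and *Adamts18*, held 72.7% to 75.3% of the sum in each library. FPKM is a value per gene length, so that levels of different genes can be set side by side. At the other end, 23 members had 0 reads in all 4 libraries and 32 had between 1 and 73 reads in total, 17 of them 10 or fewer. The 55 members below a mean FPKM of 0.1 were not tested.

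**Figure D1:**
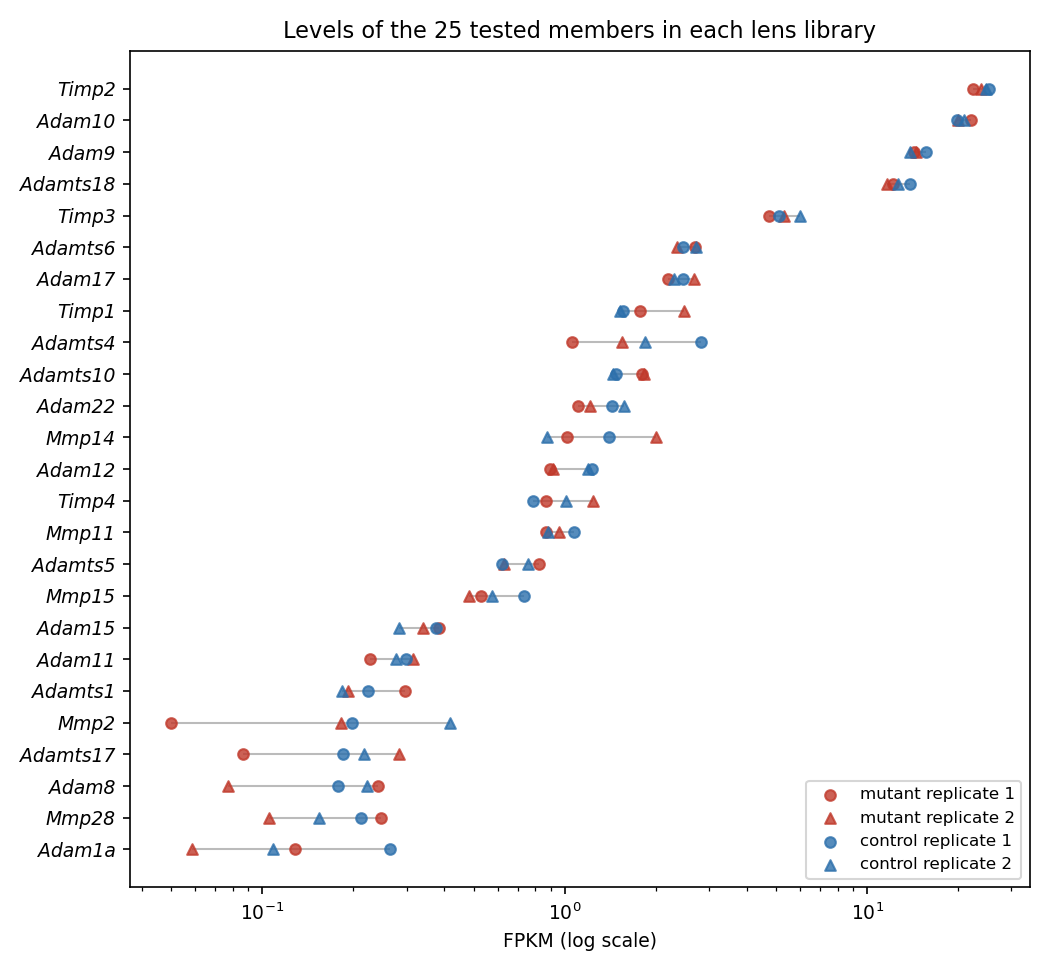
FPKM (x axis, log scale) of the 25 tested members (y axis, highest mean at the top) in each of the 4 lens libraries, red for mutant and blue for control, with a grey line over the range. The first 5 genes each lie clear of the next, from *Timp2* at 22.4 to 25.3 down to *Timp3* at 4.72 to 6.01, and most neighbours below them overlap.

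Among the inhibitors, *Timp2*, which blocks most MMPs and also helps MMP14 to activate pro-MMP2, was the highest of all 80 members and ranked 712th of all genes. Its FPKM was 22.4 and 23.8 in mutant replicates 1 and 2 and 25.3 and 24.8 in control replicates 1 and 2. *Timp3*, the matrix-bound inhibitor that also blocks ADAM17 and aggrecanases, had 4.72 and 5.31 in mutant and 5.12 and 6.01 in control libraries. *Timp2* was a little lower in both mutant libraries, and the *Timp3* values of the groups overlapped.

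*Timp1*, a secreted inhibitor induced in many injured tissues, had FPKM of 1.77 and 2.47 in mutant and 1.56 and 1.53 in control libraries, from 28, 43, 27 and 25 reads. *Timp4*, the most restricted inhibitor of the family, had 0.866 and 1.24 against 0.785 and 1.01. Mutant replicate 2 was the highest library for both genes. *Timp1*, *Timp3* and *Timp4* each lie within a synapsin gene on the other strand, *Syn1*, *Syn3* and *Syn2*, whose mean FPKM was 0.109, 0.0290 and 1.10. Whether the authors' counting used strand is not given in the sources used here, and reads of *Timp4* and *Syn2*, which were at similar levels, may be shared.

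The summed TIMP level exceeded the summed MMP level in every library. TIMP genes together had an FPKM of 29.8 and 32.8 in mutant and 32.7 and 33.3 in control libraries, and MMP genes 3.11 and 3.95 in mutant and 3.86 and 3.21 in control libraries. The ratio of the sums was 9.59 and 8.30 in mutant and 8.48 and 10.4 in control libraries, so that the groups overlapped. *Timp2* alone gave 72.5% to 77.2% of the TIMP sum.

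The ADAM level in the lens came mainly from *Adam10* and *Adam9*. *Adam10*, the sheddase of Notch and cadherins, had an FPKM of 22.0 and 19.9 in mutant and 19.9 and 21.0 in control libraries, second among the members. *Adam9*, a membrane protease whose loss causes a cone-rod dystrophy, had 14.3 and 14.5 in mutant and 15.7 and 13.9 in control libraries. *Adam17*, the sheddase of TNF and of EGF receptor ligands, was lower than both, with 2.20 and 2.67 against 2.47 and 2.30. For all 3 genes the mutant and control values overlapped.

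The other somatic ADAMs were at a mean FPKM below that of *Adam17*. *Adam12*, which has a secreted form and is linked to fibrosis, and *Adam22*, a protease-dead receptor of LGI proteins in nerve cells, are given with the genotype comparison. *Adam15* had an FPKM of 0.282 to 0.383 over the 4 libraries and *Adam11*, another protease-dead member, 0.228 to 0.315. *Adam8* and *Adam1a* were the lowest ADAMs tested, with 62 and 37 reads in total. Of the 22 ADAMs grouped here as mostly testis genes, 13 had 0 reads in all libraries and 1, *Adam1a*, was tested.

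All 19 ADAMTS genes had reads, and 7 were tested. *Adamts18*, a gene whose mutation affects the eye and the lens, had an FPKM of 12.1 and 11.6 in mutant and 13.8 and 12.6 in control libraries, and with 9620 reads in total the most reads of any member. *Adamts6*, a close relative of *Adamts10*, had 2.70 and 2.35 against 2.46 and 2.71. *Adamts10* and *Adamts17*, which act on fibrillin and are mutated in Weill-Marchesani and related syndromes with displaced lenses, stood far apart in level. *Adamts10* had an FPKM of 1.81 and 1.83 in mutant and 1.48 and 1.44 in control libraries, and *Adamts17* 0.0867 and 0.283 against 0.185 and 0.217. Mutant replicate 1 was the lowest library for *Adamts17*, with 12 reads, and mutant replicate 2 the highest, with 43.

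The aggrecan- and versican-cutting ADAMTS genes were lower. *Adamts4*, the highest of them, is given with the genotype comparison. *Adamts5* had an FPKM of 0.620 to 0.821 and *Adamts1* 0.184 to 0.296 over the 4 libraries. For both, the values of the groups overlapped. The 3 ADAMTS genes that trim procollagen, *Adamts2*, *Adamts3* and *Adamts14*, had 4 and 16 reads together in mutant and 3 and 8 in control libraries.

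Among the 23 MMPs, *Mmp14* (MT1-MMP), the membrane collagenase that activates pro-MMP2, was the highest. Its FPKM was 1.02 and 2.01 in mutant and 1.40 and 0.874 in control libraries, or 27.2% to 50.8% of the MMP sum. The value in mutant replicate 2 was above both controls and that in mutant replicate 1 lay between them. *Mmp11*, a furin-activated stromelysin, had an FPKM of 0.868 to 1.07, and *Mmp15*, another membrane-type MMP, 0.530 and 0.483 in mutant and 0.734 and 0.573 in control libraries.

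The gelatinases, which cut the collagen IV of basement membranes, were near the detection limit. *Mmp2* had 3 and 12 reads in mutant and 13 and 26 in control libraries, an FPKM of 0.0499 and 0.182 against 0.198 and 0.418. *Mmp9* had 3 and 4 reads against 2 and 3. *Mmp2* was lower in both mutant libraries, by a single read in the case of mutant replicate 2 and control replicate 1. *Mmp28* was the only other MMP tested, with 52 reads in total.

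The collagenases and stromelysins encoded side by side on chromosome 9 were almost without reads. The 10 MMP genes of this cluster, *Mmp13*, *Mmp12*, *Mmp1b*, *Mmp3*, *Mmp1a*, *Mmp10*, *Mmp8*, *Mmp27*, *Mmp20* and *Mmp7*, lie within 427 kb, between 7272514 and 7699586 in the table's coordinates, for which the submitters' processing notes name mm39. They had 3 reads in all 4 libraries together, 2 of *Mmp12* and 1 of *Mmp8*, and the other 8 genes had 0. A pair of ADAM runs on chromosome 8 had 0 reads as well. These were *Adam24*, *Adam25*, *Adam20* and *Adam39* between 41128118 and 41280074, and *Adam26b*, *Adam26a*, *Adam34l* and *Adam34* between 43972799 and 44163086. By contrast, *Adam9* on the same chromosome, between 25439627 and 25506943, had 4525 of the 4548 reads of its run of 5 ADAM genes. For the 23 members with 0 reads, 3 reads in a library would have given an FPKM of 0.0167 to 0.158 depending on gene length. That sets the level that this depth could have missed, but depth may not be the only limit. The fibre marker *Lim2* was also at 0, and the erythrocyte marker *Hba-a2* was at 0 beside *Hba-a1* at 9.12 to 21.7. Reasons for a 0 other than depth were not tested. Of all protein-coding genes, 6135 of 21970 had 0 reads.

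Promoters of the members with and without reads were set side by side, since these genes share families but not levels. RefSeq windows on GRCm38.p6, a different build from the table's, were found for 50 of the 80 members, with 55 windows in all. The 250 bases before the transcription start were read, and CG pairs were counted as a measure of CpG-island character. Below are the windows of *Timp2* and *Adam10*, the highest members, with each CG in capitals, 21 in *Timp2* and 29 in *Adam10*. The sequence after the start was found in an annotated transcript for 42 of the 55 windows, *Timp2* among them and *Adam10* not.

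Timp2, chr11:118355412-118355661, minus strand: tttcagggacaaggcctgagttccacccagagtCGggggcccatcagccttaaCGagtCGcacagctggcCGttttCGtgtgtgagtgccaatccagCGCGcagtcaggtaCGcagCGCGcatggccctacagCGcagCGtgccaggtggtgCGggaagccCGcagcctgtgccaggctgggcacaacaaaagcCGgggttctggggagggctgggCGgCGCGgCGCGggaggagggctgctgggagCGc
Adam10, chr9:70678732-70678981, plus strand: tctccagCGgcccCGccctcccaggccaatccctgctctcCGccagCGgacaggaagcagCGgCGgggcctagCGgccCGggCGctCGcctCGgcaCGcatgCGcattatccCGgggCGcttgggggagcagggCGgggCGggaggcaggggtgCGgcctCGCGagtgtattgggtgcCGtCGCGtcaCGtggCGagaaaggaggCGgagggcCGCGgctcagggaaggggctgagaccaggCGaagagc

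The windows of the 17 tested members that had one held a median of 15 CG pairs, against 6.5 in 20 windows of members with reads below the filter and 1 in 18 windows of members with 0 reads. Over all 32851 mouse windows the median was 6. At least 10 CG pairs were present in 76.5% of tested members' windows, 45% of those below the filter, 5.56% of those with 0 reads and 37.8% of all windows. Of the 23 members with 0 reads, 17 had a window, and among these *Mmp25* was the only one with at least 10 CG pairs, with 17. The tested *Timp4*, *Adam1a*, *Timp1* and *Adam8* had 2, 4, 6 and 6. Related genes share ancestry, and no test was made of these shares.

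The AP-1 consensus, TGACTCA or TGAGTCA, is known in collagenase and stromelysin promoters. The windows were also searched for the wider pattern TGANTCA, which allows any middle base. TGANTCA reads the same way on both strands and shares no bases with a CG pair. It was present in 8 of the 10 genes of the chromosome 9 cluster, which had at most 7 CG pairs in any of their 12 windows. Below are the 8 matches with 20 bases on each side, read along the gene's strand, with the pattern in capitals. The middle base is A in *Mmp20*, C in *Mmp13* and G in the others.

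Mmp13, chr9:7272459-7272505, plus strand: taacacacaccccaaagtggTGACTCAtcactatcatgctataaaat
Mmp12, chr9:7347310-7347356, plus strand: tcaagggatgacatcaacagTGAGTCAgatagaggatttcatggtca
Mmp1b, chr9:7388093-7388139, minus strand: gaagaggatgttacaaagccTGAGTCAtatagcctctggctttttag
Mmp3, chr9:7445756-7445802, plus strand: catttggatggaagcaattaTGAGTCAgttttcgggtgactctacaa
Mmp1a, chr9:7464048-7464094, plus strand: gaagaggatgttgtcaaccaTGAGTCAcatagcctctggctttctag
Mmp10, chr9:7502259-7502305, plus strand: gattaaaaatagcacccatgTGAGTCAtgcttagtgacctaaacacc
Mmp20, chr9:7628116-7628162, plus strand: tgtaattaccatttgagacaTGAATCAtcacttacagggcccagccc
Mmp7, chr9:7692007-7692053, plus strand: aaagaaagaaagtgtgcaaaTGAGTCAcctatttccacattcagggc

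These matches began 35 to 95 bases before the start. Neighbouring genes of 1 family are not independent examples. Over all members, the letters were found in 0 of 17 windows of tested members, 2 of 20 below the filter and 10 of 18 with 0 reads, against 6.75% of all windows. Of those 10 windows, 3 belonged to ADAM genes, *Adam20*, *Adam25* and *Adam29*. The median share of G and C bases was 63.2%, 60.6% and 40% in the 3 groups and 52.4% over all windows. The shares of matches were not adjusted for this base composition. The match is a description of letters and no measure of binding in the lens.

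**Figure D2:**
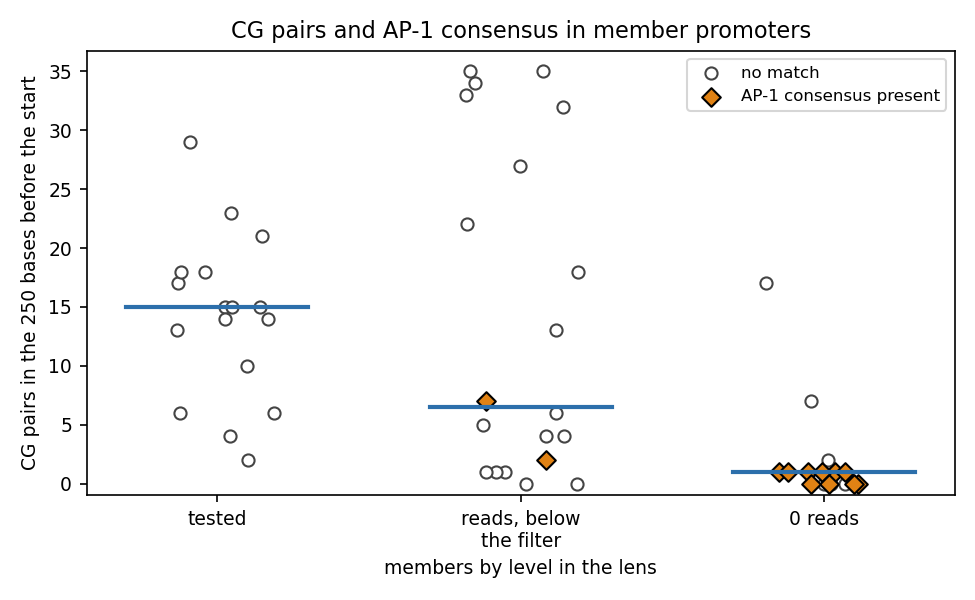
CG pairs in the 250 bases before the start (y axis) for each member's promoter windows, by level in the lens (x axis: tested, with reads but below the filter, and 0 reads). Blue lines are medians (15, 6.5 and 1) and orange diamonds mark windows holding TGANTCA, 0, 2 and 10 in the 3 groups.

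The second question was whether these levels differed between *Fsp1-cre;Pdgfrb*+/D849V and control lenses. No member reached an adjusted p under 0.05 in limma's test, in which 6 of 15997 genes, 0.0375%, did. The adjusted p of the 25 tested members lay between 0.773 and 0.983, and limma's voom on recovered reads also gave 0 members, with 0.0875% of all genes called. At an unadjusted p under 0.05 there was 1 member, *Adamts4*, or 4% of the 25, where 6.31% of all tested genes reached it and 2.92% did so with lower values in mutant lenses. Voom gave 3 members, *Adamts4*, *Adam22* and *Adam12*, all lower in mutant lenses, or 12% against 7.39%.

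Fitted differences of the 25 leaned slightly to lower values in mutant lenses. They were below 0 for 16 of the 25, with a median log2 fold change of -0.08, where 49.3% of all tested genes were below 0 with a median of 0.00409. The 2 mutant libraries lay wholly above the 2 controls for *Timp1* and *Adamts10*. They lay wholly below for 7 members, *Timp2*, *Adamts18*, *Adamts4*, *Adam22*, *Adam12*, *Mmp15* and *Mmp2*. Together these are 36% of the 25, and 36.6% of all tested genes had groups that did not overlap, 18.2% with the mutant higher and 18.3% with the mutant lower.

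**Figure D3:**
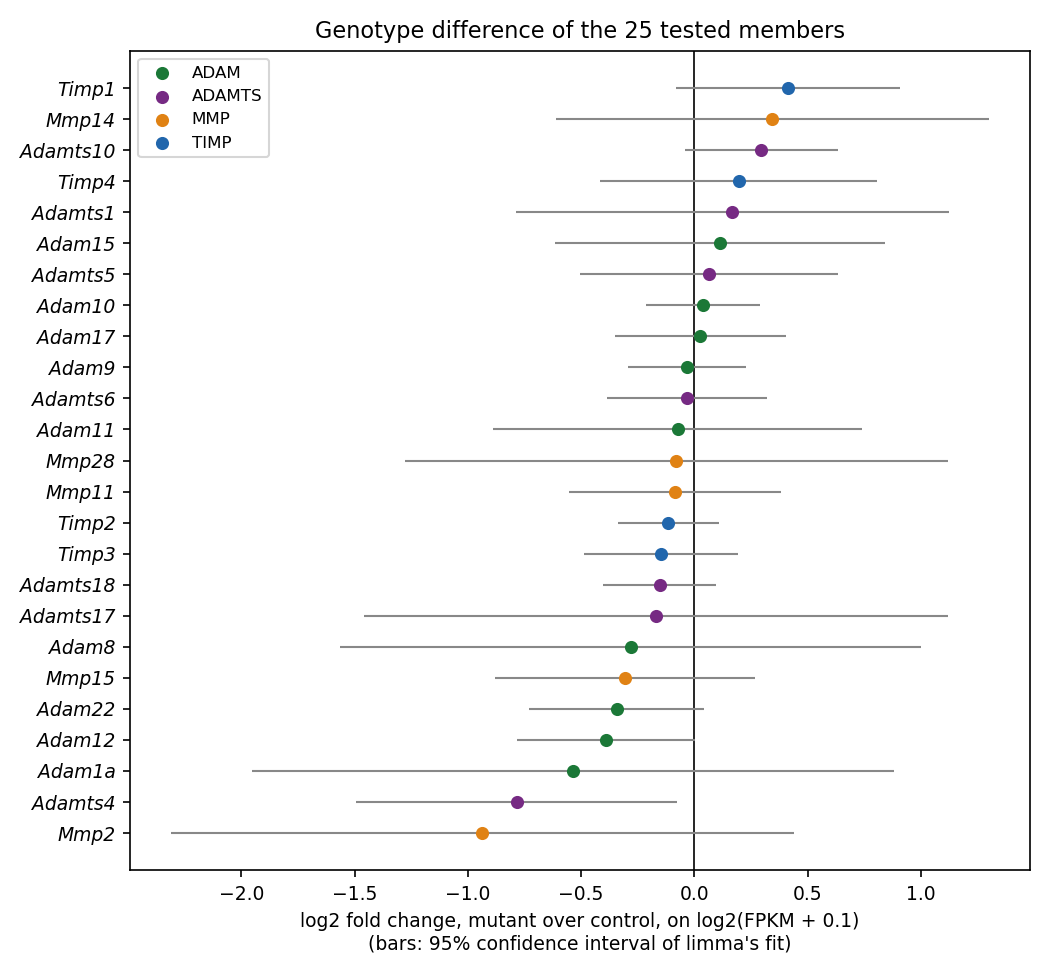
Log2 fold change, mutant over control on log2(FPKM + 0.1), of the 25 tested members (points, coloured by family) with the 95% confidence interval of limma's fit (bars). The interval of *Adamts4*, -1.49 to -0.08, leaves out 0, and those of the other 24 members include it.

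*Adamts4* (ENSMUSG00000006403, chromosome 1, 171077990 to 171088206, plus strand), the aggrecanase that also cuts versican, had 91 and 146 reads in mutant and 265 and 163 in control libraries. Its FPKM was 1.06 and 1.55 in mutant and 2.83 and 1.84 in control libraries, 1.31 ± 0.346 against 2.34 ± 0.703 (SD, 2 libraries each). Both mutant libraries were below both controls, with a gap between the groups smaller than the gap within the controls. The log2 fold change was -0.78 (SE 0.28, 95% CI -1.49 to -0.08, limma adjusted p = 0.773), and voom gave -0.82 with an adjusted p of 0.261. Within the low-*Xist* pair of libraries the log2 difference was -0.74 and within the high-*Xist* pair -0.83. The unadjusted call was lost without mutant replicate 1 (log2 fold change -0.53), without mutant replicate 2 (-1.04) and without control replicate 1 (-0.48), and was kept only without control replicate 2 (-1.09). It was also lost with no trend in limma's fit and with libraries scaled to the same FPKM sum.

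*Adam12* had FPKM of 0.891 and 0.918 in mutant and 1.24 and 1.20 in control libraries, from 168, 190, 254 and 233 reads. Its replicates were close and its groups apart, with a log2 fold change of -0.39 (SE 0.15, 95% CI -0.78 to 0.00, limma adjusted p = 0.788). *Adam22* had 1.11 and 1.21 against 1.43 and 1.57, with a log2 fold change of -0.34 (SE 0.15, adjusted p = 0.809). The lower *Adam12* value was as large in the low-*Xist* pair (-0.39) as in the high-*Xist* pair (-0.39), and for *Adam22* the pairs gave -0.47 and -0.22.

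On the higher side, *Adamts10* had the closest replicates, at 1.82 ± 0.0126 in mutant and 1.46 ± 0.0307 in control libraries (SD, 2 libraries each). Its log2 fold change was 0.30 (SE 0.13, 95% CI -0.04 to 0.64, limma adjusted p = 0.809), with 0.31 and 0.28 within the low- and high-*Xist* pairs. *Timp1* had a log2 fold change of 0.41 (SE 0.19, 95% CI -0.08 to 0.91, adjusted p = 0.809). Without mutant replicate 2 the *Timp1* value was 0.18, and voom gave the gene an adjusted p of 0.830.

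For the highest members the intervals were narrow enough to bound the difference. The fold of mutant over control was 0.923 for *Timp2* (95% CI 0.792 to 1.08), 1.03 for *Adam10* (0.863 to 1.22), 0.978 for *Adam9* (0.817 to 1.17) and 0.899 for *Adamts18* (0.756 to 1.07). *Timp3* and *Adam17* had folds of 0.904 (0.714 to 1.14) and 1.02 (0.784 to 1.32). These intervals come from limma's fit on log2(FPKM + 0.1), which understates changes of low genes.

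For the main MMPs the data left a wide range. *Mmp14* had a log2 fold change of 0.34 with a 95% CI from -0.61 to 1.30, and the libraries of each genotype differed from each other by more than the genotypes did. Within the low- and high-*Xist* pairs its log2 difference was 0.20 and 0.49, and with a term for *Xist* its adjusted p was 0.735. *Mmp2* had -0.94 (-2.31 to 0.44), with -1.79 in the low-*Xist* pair and -0.08 in the high-*Xist* pair. For both genes the intervals spanned 0, and *Mmp9* had too few reads to be tested. *Timp4*, *Adamts1* and *Adam15*, the other members fitted higher among the smallest p, had log2 fold changes of 0.20, 0.17 and 0.11 with intervals that also spanned 0.

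Below the filter, the 12 untested ADAMTS genes showed a pattern that was picked out after the values were seen and carries no test. They had 78 and 100 reads together in mutant and 39 and 54 in control libraries, a summed FPKM of 0.510 and 0.620 against 0.236 and 0.319. Both mutant libraries were above both controls, by a ratio of the group means of 2.04, with 1.60 in the low-*Xist* and 2.63 in the high-*Xist* pair. Of the 12 genes, 10 had the higher mean in mutant lenses and 2 the lower. For 4, *Adamts16*, *Adamts7*, *Adamts9* and *Adamts13*, the groups did not overlap, all higher in mutant. Of the 11 ADAMs and 9 MMPs with reads below the filter, 3 and 4 had the higher mean in mutant lenses. Groups were apart for 2 of these ADAMs and 1 of these MMPs, all higher in mutant. For *Adam21*, 1 of these ADAMs, this rested on 1 and 1 reads in mutant and 0 and 0 in control libraries. The share of all genes below the filter with a higher mutant mean was not counted. Among 3682 protein-coding genes with reads below the filter, 12.9% had groups apart with the mutant higher and 9.53% with the mutant lower.

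*Adamts16*, a protease described in kidney and gonad, had 17 and 15 reads in mutant and 1 and 6 in control libraries. *Adamts7*, which cuts COMP, had 8 and 16 against 1 and 6, and *Adamts9*, a versicanase, 23 and 20 against 14 and 16. *Adamts13* had only 3 and 3 against 2 and 0. Without *Adamts16* the sums were 61 and 85 reads in mutant and 38 and 48 in control libraries, in the same order. The remaining genes come from the same set picked after the values were seen, so these sums add no independent support. With no filter on low FPKM, limma gave *Adamts16* an adjusted p of 0.823. The 11 ADAMs below the filter had 22 and 20 reads in mutant and 28 and 27 in control libraries, and the 9 MMPs had 33 and 24 against 27 and 29.

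**Figure D4:**
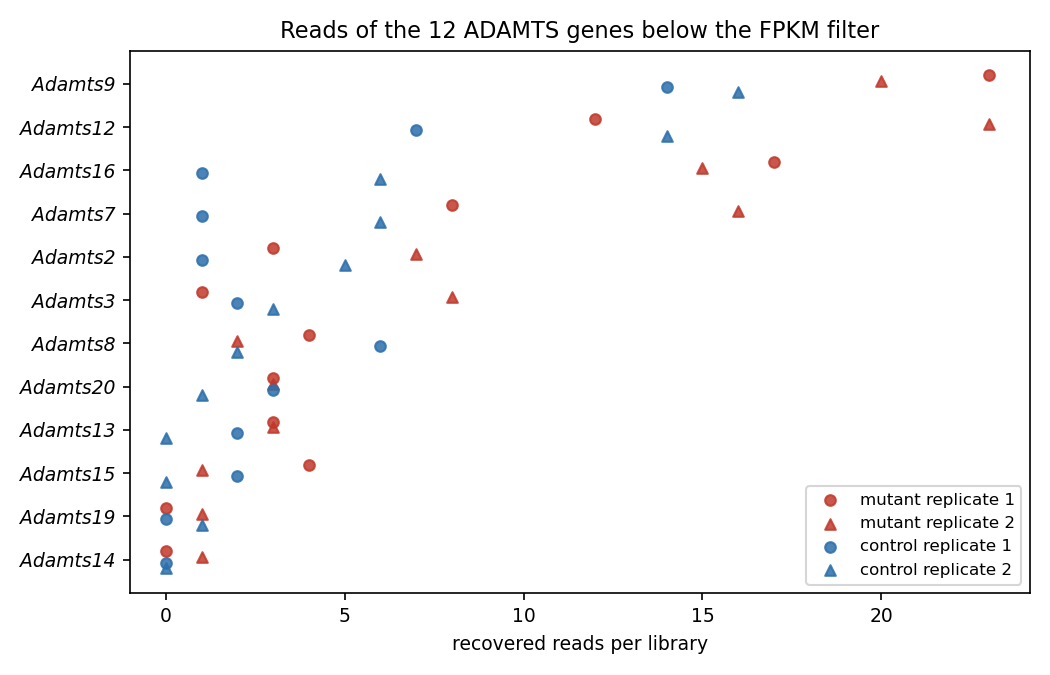
Recovered reads per library (x axis) of the 12 ADAMTS genes below a mean FPKM of 0.1 (y axis, most reads at the top), red for mutant and blue for control. The mutant points of *Adamts9*, *Adamts16*, *Adamts7* and *Adamts13* lie to the right of the control points, and most of the other genes have fewer than 10 reads in each library.

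Some markers of other cells also stood apart between the genotypes at similarly low levels. The 7 macrophage markers summed to an FPKM of 1.69 and 1.68 in mutant and 0.670 and 0.453 in control libraries. *C1qa*, *C1qb* and *C1qc*, the 3 of the 7 that were tested, each had an unadjusted p under 0.05, as did 6.31% of all tested genes, and were higher in mutant lenses, with limma adjusted p-values of 0.761, 0.736 and 0.787. *Ptprc*, which marks all leukocytes, had at most 2 reads in a library. Of the 6 fibroblast and mesenchyme markers, *Col1a1* had 28 and 40 reads in mutant and 6 and 9 in control libraries. *Dcn* had 4 reads in all and *Lum* 0, and the list summed to 5.04 and 6.56 against 6.66 and 6.04. Most of that sum was *Pdgfra*, with 4.02 and 5.25 against 5.86 and 5.32, lower in both mutant libraries. *Col1a2* had 0.659 and 0.876 against 0.679 and 0.537, and *Col3a1* 0.114 and 0.0937 against 0.0733 and 0.111. Both of these overlapped between the groups. Of the 6 pericyte markers, which summed to 5.02 and 4.25 against 6.32 and 5.98, *Rgs5*, the highest, had 3.43 and 2.47 in mutant and 4.60 and 4.30 in control libraries. Of the 5 pericyte markers tested, 2, *Rgs5* and *Notch3*, were fitted lower and 3, *Kcnj8*, *Abcc9* and *Anpep*, higher, and *Abcc9* was higher in both mutant libraries. The part of these cells in the ADAMTS reads was not tested, and in such pools fewer cells of a type and less RNA per cell cannot be told apart.

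Genes that activate, anchor or restrain the members, or are cut by them, were read from the same fit. Of 76 listed genes, 54 were tested, 0 had an adjusted p under 0.05 and 4 had an unadjusted p under 0.05, 1 higher and 3 lower in mutant lenses. These 4 are 7.41% of the 54, against 6.31% of all genes. Voom gave 11 of the 54, 3 higher and 8 lower, where 7.39% of all genes were called, and 0 after adjustment. The median log2 fold change of the 54 was -0.06.

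Among proteins shed by ADAM10 and its relatives, 10 of 12 tested genes were fitted lower in mutant lenses and 2 higher, the median difference was -0.19 on the log2 scale, and 2 had an unadjusted p under 0.05. Over all tested genes, 49.3% were fitted lower and 6.31% had such a p. *Jag1*, the Notch ligand of lens fibre cells, had an FPKM of 11.5 and 11.5 in mutant and 13.7 and 13.7 in control libraries. *Notch1* had 0.713 and 0.807 against 1.22 and 1.03, and *Cdh2* (N-cadherin), the main cadherin of fibre cells, 11.4 and 13.4 against 15.5 and 14.9. For all 3 both mutant libraries were below both controls, with log2 fold changes of -0.25 (SE 0.09), -0.51 (SE 0.18) and -0.29 (SE 0.12) and limma adjusted p-values of 0.769, 0.782 and 0.788.

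The partners of the 2 main sheddases gave no unadjusted call among 9 tested genes. *Tspan14*, a tetraspanin that carries ADAM10 to the cell surface, had an FPKM of 22.3 and 22.4 in mutant and 19.7 and 21.5 in control libraries, close to the level of *Adam10* itself. *Rhbdf2* (iRhom2), which does the same for ADAM17, had 2.90 and 3.17 against 2.57 and 2.52, and *Tspan10* had 0.560 and 0.709 against 0.371 and 0.572. *Tspan14* and *Rhbdf2* were higher in both mutant libraries, with log2 fold changes of 0.12 (SE 0.09) and 0.24 (SE 0.12), and *Tspan10* overlapped.

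**Figure D5:**
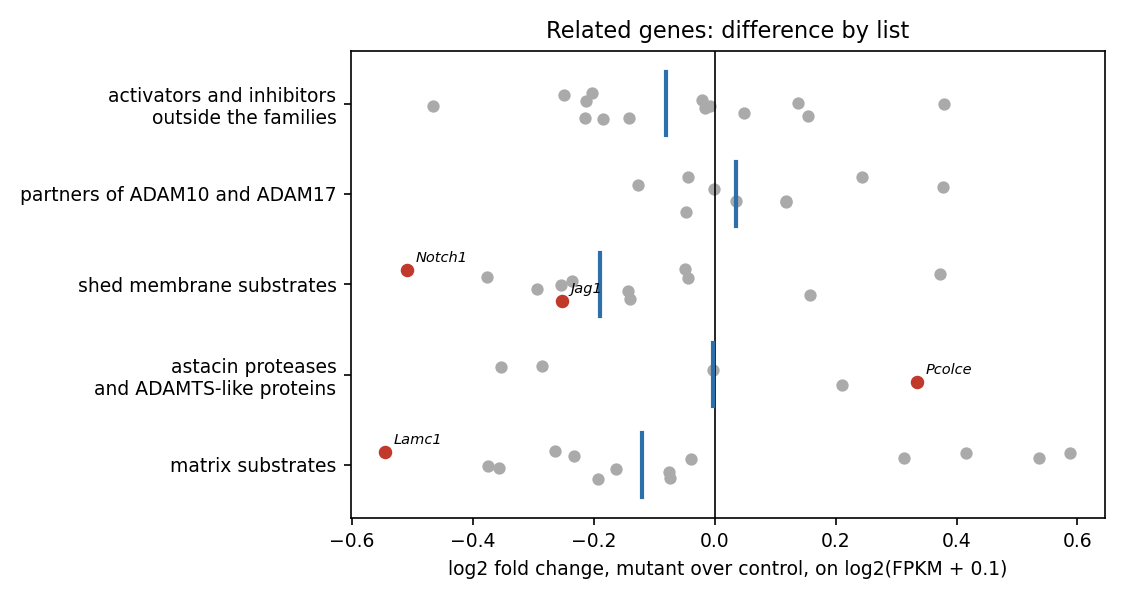
Log2 fold change, mutant over control on log2(FPKM + 0.1), of each tested related gene (points, x axis) in 5 lists (y axis), with the list median as a blue line. Red points with names had an unadjusted p under 0.05 in limma's test, *Pcolce* higher and *Notch1*, *Jag1* and *Lamc1* lower in mutant lenses.

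Among the astacin proteases and ADAMTS-like proteins, *Pcolce*, which speeds the trimming of procollagen by BMP1, had an FPKM of 6.82 and 6.43 in mutant and 5.58 and 4.90 in control libraries. Its log2 fold change was 0.34 (SE 0.12, limma adjusted p = 0.769). *Thsd4* (ADAMTSL6), which promotes fibrillin assembly, had 2.47 and 2.59 against 2.16 and 2.18, and *Adamtsl4*, whose loss displaces the lens, 3.26 and 3.69 against 5.11 and 3.53. Values of *Pcolce* and *Thsd4* were higher in both mutant libraries, and those of *Adamtsl4* overlapped.

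Among matrix substrates, *Lamc1*, the laminin chain shared by most basement membranes, had an FPKM of 4.24 and 5.56 in mutant and 8.09 and 6.29 in control libraries. Its log2 fold change was -0.55 (SE 0.19, limma adjusted p = 0.771), with -0.56 and -0.53 in the low- and high-*Xist* pairs. *Col4a1*, the capsule collagen, had 183 and 233 against 289 and 242, a log2 fold change of -0.36 (SE 0.16). *Eln* (elastin) was at a low level and higher in both mutant libraries, 0.416 and 0.366 against 0.235 and 0.241. Of the 14 tested substrates, 10 were fitted lower and 4 higher, with a median log2 fold change of -0.12. Over all tested genes, 49.3% were fitted lower. The groups did not overlap for 4 substrates lower and 3 higher in mutant lenses, against 18.3% and 18.2% of all tested genes. Voom gave 4 lower and 2 higher at an unadjusted p under 0.05, where 7.39% of all genes were called, and 0 after adjustment.

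Outside the families, *Lrp1*, the receptor that clears MMPs, ADAMTS proteins and TIMPs from the matrix, had an FPKM of 2.68 and 3.71 in mutant and 5.18 and 3.73 in control libraries. The value of mutant replicate 2 lay just below that of control replicate 2, and the log2 fold change was -0.47 (SE 0.23, limma adjusted p = 0.811). *Furin*, the convertase that activates ADAMs and membrane-type MMPs, had 2.49 and 2.84 against 2.87 and 3.30. *Furin* was lower in both mutant libraries, by a small gap.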

How the data were processed

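RNA of pooled mouse lenses was sequenced as 2 mutant and 2 control libraries, and the labels' genotypes set the groups. The authors' provider made and deposited FPKM for each gene with its length and position. Per the study's methods, reads were aligned with HISAT2 and assigned to genes with featureCounts. The processing notes name mm39, and the strand setting is not given in the sources used here. The FPKM were treated as a normalized unit and not as counts. Median-ratio factors, set to a geometric mean of 1, were applied to the libraries and left the values as they were. A mean FPKM of 0.1 or more was required for testing. Values entered as log2(FPKM + 0.1) into lmFit and eBayes with a trend (limma 3.58.1, R 4.3.3), two-sided, with Benjamini-Hochberg adjustment over 15997 genes.

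Whole reads were recovered as FPKM times gene length over the smallest step, and 100% of values were whole within 0.01. They served for read counts and for voom. Counting intervals are not given, and 3 reads were taken as the floor. Scripts were tested on simulated data. 0 per-sample columns were left unused, and the table holds no fold changes or p-values of the authors.

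Named genes were the 20 highest members, the 6 with the smallest p in each direction, fixed members of matrix or eye biology, and the 3 related genes with the smallest p in each list. Of these, 1 related gene is not reported here. Others named with values, such as *Adamts16*, *Adamts7*, *Adamts9*, *Adamts13*, *Mmp28*, *Adam8* and *Adam1a*, lie outside this rule. The members, lists and tests were chosen with earlier results of these data known. *Nrg1* has more than 1 row and was left out. Python 3.11.15, numpy 2.4.6, pandas 2.3.3, scipy 1.17.1 and matplotlib 3.10.9 were used. Alternatives were pseudocounts of 1 and 0.01, a mean FPKM of at least 1, no filter, no rescaling, an equal FPKM sum, no trend, voom, a replicate block, a term for high or low *Xist*, and each library left out.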

Additional observations from a re-analysis of the deposited data

How the results depend on the processing

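No member had an adjusted p under 0.05 under any of the 14 alternatives. The alternative with no rescaling repeats the main fit, since all rescaling factors were 1, and so adds no check. The 1 member with an unadjusted p under 0.05 became 0 when libraries were scaled to the same FPKM sum and 3 with voom, and ranged from 0 to 1 with a library left out. It was 0 without mutant replicate 2 and without control replicate 1, *Timp1* in place of *Adamts4* without mutant replicate 1, and *Adam12* in its place with no trend. Under the alternatives to limma's settings, 4.12% to 8.97% of all tested genes reached that p. The log2 fold change of *Adamts4* ranged from -1.09 to -0.48, its adjusted p from 0.261 to 0.978. The 4 related genes became 0 with the same FPKM sum, 11 with voom and 10 with the *Xist* term, and 0 to 3 with a library left out. The cause was not tested.

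The labels share replicate numbers, but same-numbered libraries did not deviate together over all tested genes (correlation -0.00508). With 2 libraries a group this is a single correlation, which cannot exclude a pairing that touches few genes. With the replicate block, 2 related genes and 1 member, *Adamts4*, had an unadjusted p under 0.05. Leaving out a library leaves 1 library in a group, assumed to vary like the other group.

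Of 22 members followed, 10 kept their sign in every setting. With the same FPKM sum, *Adam10* gave -0.0044 and *Adam17* -0.014. With a library left out, the log2 fold change spanned 0 for *Adam10* (-0.035 to 0.107), *Adam11* (-0.25 to 0.10), *Adam15* (-0.0505 to 0.273), *Adam17* (-0.11 to 0.16), *Adam9* (-0.124 to 0.0555), *Adamts1* (-0.0506 to 0.385), *Adamts17* (-0.69 to 0.35), *Adamts5* (-0.10 to 0.23), *Adamts6* (-0.131 to 0.0611), *Mmp11* (-0.22 to 0.0487), *Mmp14* (-0.12 to 0.80) and *Timp4* (-0.0412 to 0.432). No scaling moved the median of all genes by over 0.1. Low members rest on few reads, which limits what a difference in them can show.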
